A study of Homo sapiens with 11 samples.

Results

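The 10 genes described here are the metallothioneins MT2A, MT1A, MT1E, MT1F, MT1G, MT1M and MT1X, the zinc-sensing transcription factor MTF1, the zinc exporter SLC30A1 and the zinc importer SLC39A10. They were chosen by symbol, with earlier results of these data known. All 10 are listed among the 28252 genes of the RT4 RNA-Seq files and among the 26237 gene promoters of the BEAS-2B H3K4me3 files. RT4 is a human bladder cancer line and BEAS-2B is an immortalized human bronchial epithelial line. In RT4, untreated cells (UT), cells kept in 100 μM NiCl2 for 6 weeks (Ni-E) and exposed cells then grown without nickel for 2 weeks (Ni-W) had 2 RNA libraries each, which the study's methods call biological replicates. In BEAS-2B, UT, Ni-E (the same dose and time) and Ni-W cells had 1 H3K4me3 library each. The BEAS-2B Ni-W cells were 1 population grown from a single colony of exposed cells and kept without nickel for more than 6 months by the study's methods, although the labels also name 2 weeks for this line. BEAS-2B RNA was not analysed here.

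Metallothioneins are small cysteine-rich proteins that bind zinc, copper and cadmium, and in the human genome most of their genes lie side by side on chromosome 16. MTF1 senses free zinc and binds metal response elements, short DNA motifs in the promoters of the metallothionein genes and of SLC30A1, whose product moves zinc out of the cell. SLC39A10 belongs to the ZIP family, which brings zinc into the cytosol, and is known to be lower when cells hold more zinc. H3K4me3 is a histone mark found at the promoters of active genes.

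The RT4 libraries differed between replicate numbers. Replicate 1 of each group held 17075833 to 18280556 estimated counts and replicate 2 held 25721265 to 27736454. Within each group the difference between the replicates went with gene length. Over 959 genes shorter than 1 kb, replicate 2 was higher than replicate 1 by a median of 0.53 (UT), 0.38 (Ni-E) and 0.74 (Ni-W) on the log2 CPM scale, and over 3236 genes of 5 kb or more the medians were −0.33, −0.28 and −0.53. The metallothionein transcripts are 396 to 572 bases long in these files and fall in the first class, whereas MTF1, SLC30A1 and SLC39A10 exceed 5 kb and fall in the second, so ratios between conditions are given below also within each replicate number. All 12 urothelial markers were detected in every RT4 library, with a summed level of 10846 to 13489 TPM. Of 9 markers of other cell types, 4 (CD3E, DCN, ALB and SOX10) were at 0 in all 6 libraries and 3 (COL1A1, COL3A1 and VWF) were above 0 in each. The 9 summed to 1.99 and 3.63 TPM in UT, 3.59 and 5.64 in Ni-E and 3.14 and 6.74 in Ni-W. COL3A1 stood at 44 and 22 counts in UT, 217 and 194 in Ni-E and 206 and 131 in Ni-W. VWF stood at 160 and 128, 82 and 83, and 121 and 115 counts, and COL1A1 at 48 and 75, 31 and 77, and 26 and 79. None of these 3 was called. KRT7 and KRT19 hold most of the urothelial sum. Of the 12, 2 were called lower for Ni-E vs UT, the cytokeratin KRT20 and the uroplakin UPK1A, and KRT20 also for Ni-W vs UT. Over all genes tested, 0.71% were called lower for Ni-E vs UT and 0.0965% for Ni-W vs UT. KRT20 stood at 177 and 297 counts in UT, 4 and 3 in Ni-E and 22 and 37 in Ni-W, and UPK1A at 763 and 1655, 174 and 338, and 369 and 807 counts. Any part of these levels in the results was not tested. In a bulk library, fewer cells with a transcript and less transcript per cell cannot be told apart.

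MT2A is the most widely expressed human metallothionein. Its gene spans chr16:56608584-56609497 on the plus strand of GRCh38.p14 and has 3 exons. The 250 bases before its start are shown because they hold an unusual number of metal response element cores, given in capitals. The cores were searched as TGCACNC and TGCGCNC on both strands, so that a core on the opposite strand reads as its reverse complement. The window of MT2A is chr16:56608334-56608583.
MT2A: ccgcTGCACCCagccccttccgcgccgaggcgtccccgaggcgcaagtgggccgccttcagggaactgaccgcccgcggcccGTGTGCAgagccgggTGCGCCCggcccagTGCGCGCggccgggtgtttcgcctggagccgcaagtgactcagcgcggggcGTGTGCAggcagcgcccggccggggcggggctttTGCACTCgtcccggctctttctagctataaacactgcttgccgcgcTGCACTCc
These letters hold 7 cores, which begin 246, 168, 153, 139, 88, 54 and 8 bases before the start. Of all 35116 RefSeq promoter entries, 24.8% held at least 1 core in the same window and 0.0313% held at least 7. G and C make up 73.2% of the MT2A window, and these shares were not matched for base composition.

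MT2A RNA rose in both nickel groups. It stood at 4.14 and 4.96 TPM in UT (replicates 1 and 2), at 42.31 and 53.79 TPM in Ni-E and at 65.37 and 68.8 TPM in Ni-W. Both nickel groups lay above UT without overlap. Ni-E and Ni-W did not overlap in TPM, but on the TMM-scaled CPM used in the test they did, with 5.01 and 7.17 CPM in Ni-E and 7.06 and 9.64 CPM in Ni-W. The counts behind these levels were 9 and 18 in UT, 91 and 197 in Ni-E and 123 and 250 in Ni-W, so that the precision is set by the few UT reads. The fold change was 10.1 for Ni-E vs UT (log2 3.33 ± 0.38 SE, edgeR's quasi-likelihood test with Benjamini-Hochberg adjusted p = 0.0218) and 13.8 for Ni-W vs UT (log2 3.78 ± 0.38 SE, adjusted p = 0.0252). The contrasts share the UT libraries. Both passed the criteria of at least a 1.5-fold change and an adjusted p below 0.05. For Ni-W vs Ni-E the log2 change was 0.45 ± 0.32 SE (adjusted p = 0.9999), which did not pass. Within replicate numbers the ratios were close to each other, at 10.4 and 10.2 for Ni-E vs UT, 14.6 and 13.6 for Ni-W vs UT and 1.41 and 1.34 in Ni-W vs Ni-E. Leaving out either UT library or either Ni-E library ended the Ni-E vs UT call, with log2 changes of 3.05 to 3.64. The Ni-W vs UT call ended without UT replicate 1, UT replicate 2, Ni-E replicate 1, Ni-E replicate 2 or Ni-W replicate 2, with log2 changes of 3.54 to 4.10. In each of these fits fewer genes in all were called than in the full fit, so the loss was not particular to MT2A. Over the settings that kept all 6 libraries or both libraries of the groups compared, the lowest adjusted p came from DESeq2. It was 1.98e-09 for Ni-E vs UT and 4.26e-12 for Ni-W vs UT. The highest came from edgeR on only the 2 groups compared, at 0.0260 for Ni-E vs UT and 0.114 for Ni-W vs UT.

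In this model, which has no replicate block, MT2A was the only member called, 1 of the 6 that passed the expression filter. Over all 14502 genes tested, 2.17% were called for Ni-E vs UT (1.45% higher, 0.71% lower), 0.6% for Ni-W vs UT (0.503% higher, 0.0965% lower) and 0.0% in Ni-W vs Ni-E. At an unadjusted p below 0.05 there were 3 members for Ni-E vs UT (MT1X, MT2A and SLC39A10), 2 for Ni-W vs UT (MT1X and MT2A) and 0 between Ni-W and Ni-E, beside 12.2%, 9.12% and 5.57% of all genes tested. DESeq2 and limma on TPM called 1 member in each contrast with UT and 0 between Ni-W and Ni-E. The median log2 change of the 6 tested members was 0.82, 1.15 and 0.25 in these contrasts, beside −0.01, 0.00 and 0.02 over all genes tested. The 6 include MT1X, which passed the filter only through the Ni-E and Ni-W libraries. Since the members were chosen with earlier results of these data known, these medians are a description only.

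**Figure D1:**
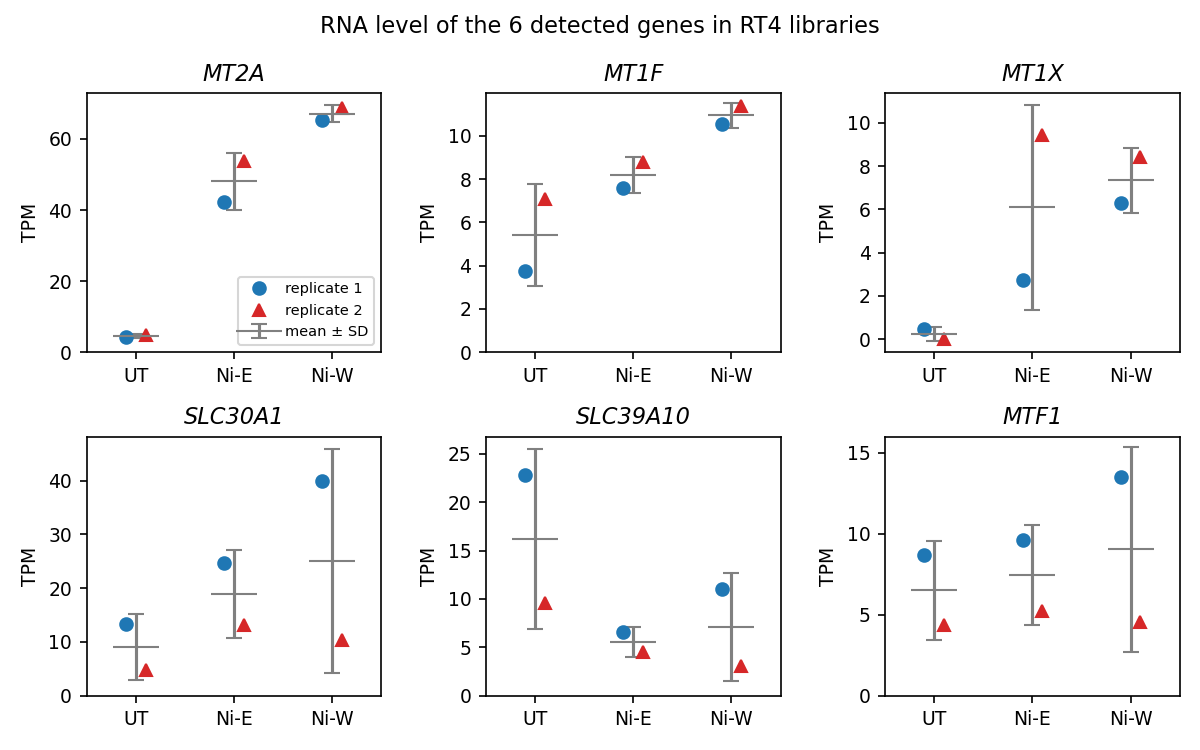
RNA level (TPM, vertical axis, a scale for each gene) of the 6 members with reads in RT4, for the UT, Ni-E and Ni-W groups. Circles are replicate 1, triangles replicate 2, and bars are the mean ± SD of n = 2; MT2A moves from 4.14 and 4.96 TPM in UT to 65.37 and 68.8 TPM in Ni-W, while the triangles lie below the circles for SLC30A1, SLC39A10 and MTF1 in every group.

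MT1F, another zinc-binding metallothionein, spans chr16:56657959-56659303 on the plus strand and starts 49375 bases from MT2A. Its levels were 3.74 and 7.07 TPM in UT, 7.6 and 8.77 in Ni-E and 10.54 and 11.36 in Ni-W. The groups did not overlap in TPM. In TMM-scaled CPM Ni-E overlapped both UT and Ni-W, whereas Ni-W lay above UT. The values were 0.483 and 1.14 in UT, 1.05 and 1.35 in Ni-E and 1.32 and 1.81 in Ni-W. The counts were small, from 9 to 47. The log2 change was 0.54 ± 0.49 SE for Ni-E vs UT and 0.93 ± 0.49 SE for Ni-W vs UT (edgeR, adjusted p = 0.893 and 0.761), so neither passed. Without UT replicate 1 these were 0.08 and 0.47, and without UT replicate 2 they were 1.31 and 1.69. Without Ni-E replicate 2 the first was 0.34. The within-replicate ratios were 2.17 and 1.18 for Ni-E vs UT and 2.73 and 1.59 for Ni-W vs UT. In UT, MT1F was the metallothionein with the level nearest to MT2A. In Ni-E and Ni-W it reached at most 11.36 TPM, where MT2A had at least 42.31 TPM.

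MT1X spans chr16:56682470-56684196 on the plus strand. Its 250 bases before the start, chr16:56682220-56682469, are shown as the other metallothionein promoter with an entry in the RefSeq table.
MT1X: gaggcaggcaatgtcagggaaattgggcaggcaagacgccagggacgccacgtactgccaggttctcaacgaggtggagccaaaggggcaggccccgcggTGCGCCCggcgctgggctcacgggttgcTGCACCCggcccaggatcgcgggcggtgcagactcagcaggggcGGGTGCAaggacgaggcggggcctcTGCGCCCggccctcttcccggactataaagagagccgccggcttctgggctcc
It holds 4 cores and 70.0% G and C, and 0.37% of the promoter entries, of any base composition, held at least 4. MT1A, MT1E, MT1F, MT1G and MT1M have no entry.

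MT1X counts were 1 and 0 in UT, 6 and 35 in Ni-E and 12 and 31 in Ni-W, or 0.45 and 0 TPM, 2.75 and 9.43 TPM, and 6.29 and 8.42 TPM. Both nickel groups lay above UT and overlapped each other. From the summed counts the ratio was 39.7 for Ni-E vs UT (95% counting interval 6.73 to 1604) and 43.8 for Ni-W vs UT (7.44 to 1768). The change did not pass the test in this model (edgeR, adjusted p = 0.144 and 0.194).

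MT1A, MT1E, MT1G and MT1M had 0 counts in all 6 libraries, and so did the 9 other metallothionein genes and pseudogenes listed (MT1B, MT1H, MT1HL1, MT1L, MT1JP, MT1DP, MT1IP, MT3 and MT4). A count of 0 allows up to 3 counts, which is 0.108 to 0.176 CPM at these depths. A count of 0 in these files need not be a silent gene. The study's methods drop RNA reads with several hits, and whether that holds for the estimated counts is not given in the sources used here. SLC39A7, a zinc transporter of the endoplasmic reticulum that nearly all cells use, was also at 0 in all 6 RNA libraries and at 0 RPKM in all 3 H3K4me3 libraries. It was singled out after its values were seen.

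The coding sequences of the metallothioneins are nearly the same, which bears on how reads can be divided among them. Those of MT2A and of the other 2 metallothioneins with reads in RT4 are shown with MT1E, which had the lowest H3K4me3 ratios to UT among the members with at least 1 RPKM in BEAS-2B UT cells. Capitals mark the bases that differ from MT2A in sequences of equal length.
MT2A: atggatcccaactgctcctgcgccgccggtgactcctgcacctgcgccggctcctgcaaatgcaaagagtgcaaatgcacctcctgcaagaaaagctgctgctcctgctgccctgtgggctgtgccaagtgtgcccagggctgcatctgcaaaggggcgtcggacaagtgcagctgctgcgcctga
MT1F: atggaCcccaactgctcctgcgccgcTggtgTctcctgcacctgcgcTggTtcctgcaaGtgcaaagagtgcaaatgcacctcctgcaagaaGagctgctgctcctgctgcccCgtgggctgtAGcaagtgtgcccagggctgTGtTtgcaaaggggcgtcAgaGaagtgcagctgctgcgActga
MT1X: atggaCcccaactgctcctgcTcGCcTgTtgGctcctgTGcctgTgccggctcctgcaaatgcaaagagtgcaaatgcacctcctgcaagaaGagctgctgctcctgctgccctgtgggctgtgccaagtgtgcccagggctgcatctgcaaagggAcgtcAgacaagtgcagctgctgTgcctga
MT1E: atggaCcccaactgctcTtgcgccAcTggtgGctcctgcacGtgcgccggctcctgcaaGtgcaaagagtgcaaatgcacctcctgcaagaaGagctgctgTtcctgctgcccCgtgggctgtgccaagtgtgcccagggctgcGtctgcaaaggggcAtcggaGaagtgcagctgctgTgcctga
Each is 186 bases long. MT1F differs from MT2A at 16 bases, and MT1X and MT1E at 14 each. Identity to MT2A over the 6 MT1 members was 89.8% (MT1M) to 93.7% (MT1G, 189 bases). Of the windows of 50 bases along each transcript, the share also found in another gene was 11.1% for MT2A, 6.12% for MT1F and 51.0% for MT1X, the highest of the members. It was 19.9% for MT1G, 14.6% for MT1M, 5.76% for MT1A and 5.34% for MT1E.

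Summed over the 7 metallothioneins, the level was 8.33 and 12.03 TPM in UT, 52.66 and 71.99 TPM in Ni-E and 82.2 and 88.58 TPM in Ni-W. Both nickel groups lay above UT without overlap. As for MT2A alone, Ni-E and Ni-W did not overlap in TPM but did in TMM-scaled CPM, at 6.39 and 9.80 in Ni-E and 9.08 and 12.6 in Ni-W. The summed counts were 19 and 47, 116 and 269, and 158 and 328. The fold change of the sum was 5.58 for Ni-E vs UT (log2 2.48 ± 0.41 SE), 7.48 for Ni-W vs UT (log2 2.90 ± 0.41 SE) and 1.34 in Ni-W vs Ni-E (log2 0.42 ± 0.37 SE), and the sum was not tested. Within replicate numbers the sum was 6.26-fold and 5.31-fold higher in Ni-E than in UT, and 8.89-fold and 6.86-fold higher in Ni-W than in UT. MT2A made up 47.4% and 38.3% of the summed counts in UT, 78.4% and 73.2% in Ni-E and 77.8% and 76.2% in Ni-W. The share of MT1F was 47.4% and 61.7% in UT and 13.8% to 16.4% in the nickel groups.

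MTF1, which lies on chromosome 1 (chr1:37809574-37859592, minus strand, 11 exons), was at 8.67 and 4.35 TPM in UT, 9.61 and 5.25 in Ni-E and 13.49 and 4.56 in Ni-W. The groups overlapped, and replicate 1 was above replicate 2 in each. The log2 changes were 0.20 ± 0.48 SE for Ni-E vs UT and 0.37 ± 0.48 SE for Ni-W vs UT (edgeR, adjusted p = 0.997 and 0.9995). Within replicate numbers the ratios were 1.14 and 1.16 for Ni-E vs UT and 1.44 and 1.05 for Ni-W vs UT. The 250 bases before its start held 0 cores.

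SLC30A1, the zinc exporter of the plasma membrane, lies at chr1:211571568-211579161 on the minus strand and has 2 exons. Its promoter window chr1:211579162-211579411 is shown for the single core that it holds, on the opposite strand and 49 bases before the start.
SLC30A1: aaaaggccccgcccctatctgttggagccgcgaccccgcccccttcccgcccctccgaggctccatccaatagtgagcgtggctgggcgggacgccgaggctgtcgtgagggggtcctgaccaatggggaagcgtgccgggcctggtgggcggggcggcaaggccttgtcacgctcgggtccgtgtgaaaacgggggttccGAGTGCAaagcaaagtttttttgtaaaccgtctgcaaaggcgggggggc
SLC30A1 RNA stood at 13.36 and 4.7 TPM in UT, 24.65 and 13.11 TPM in Ni-E and 39.86 and 10.3 TPM in Ni-W. The groups overlapped, with replicate 1 higher than replicate 2 in all 3, and both replicates of Ni-E and Ni-W lay above the UT library of the same number. These ratios were 1.90 and 2.67 for Ni-E vs UT and 2.76 and 2.21 for Ni-W vs UT, and 1.45 and 0.826 in Ni-W vs Ni-E. The log2 change was 1.09 ± 0.64 SE and 1.38 ± 0.64 SE in the contrasts with UT, and did not pass in this model (edgeR, adjusted p = 0.675 and 0.676). Leaving out 1 library moved them between 0.60 (without UT replicate 2) and 1.84 (without UT replicate 1), and between 0.40 (without Ni-W replicate 1) and 2.12 (without UT replicate 1).

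SLC39A10, the zinc importer, lies at chr2:195613029-195737700 on the plus strand. It stood at 22.81 and 9.63 TPM in UT, 6.62 and 4.49 TPM in Ni-E and 11.01 and 3.11 TPM in Ni-W. Both Ni-E libraries were below both UT libraries. Ni-W replicate 1 was above UT replicate 2 in TPM, whereas in TMM-scaled CPM it was below, at 27.2 against 30.9. Within replicate numbers the ratios were 0.299 and 0.446 for Ni-E vs UT, 0.447 and 0.325 for Ni-W vs UT and 1.49 and 0.729 in Ni-W vs Ni-E. The log2 change was −1.52 ± 0.55 SE for Ni-E vs UT (edgeR, unadjusted 0.0334, adjusted p = 0.330) and −1.31 ± 0.55 SE for Ni-W vs UT (adjusted p = 0.575), so neither passed in this model. Leaving out 1 library moved the first between −0.95 (without UT replicate 1) and −1.93 (without UT replicate 2), and the second between −0.73 (without UT replicate 1) and −2.19 (without Ni-W replicate 1). Both of its promoter entries held 0 cores. They cover chr2:195656708-195656957 and chr2:195656976-195657225, within the span above, so the bases before its first position were not searched.

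**Figure D2:**
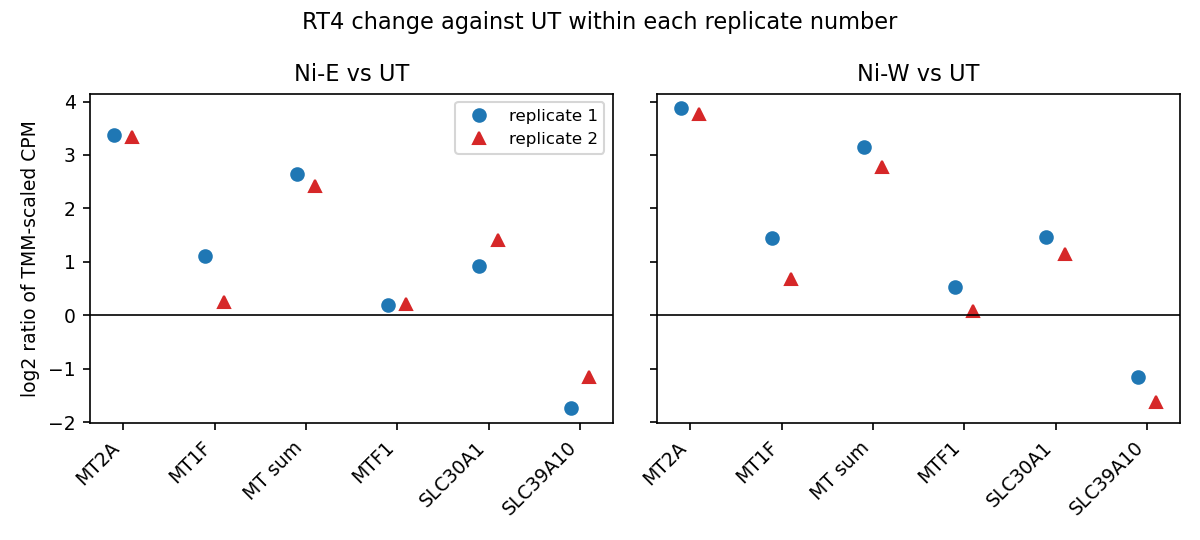
Change against UT within each replicate number in RT4, as the log2 ratio of TMM-scaled CPM (vertical axis), for Ni-E (left) and Ni-W (right). Circles are replicate 1 and triangles replicate 2, MT sum is the sum over the 7 metallothioneins, and MT1X is left out since UT replicate 2 had 0 counts; SLC39A10 lies below 0 and the other genes above 0 in both replicates.

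The other genes of zinc handling gave no call, but few genes of any kind did. Of all genes tested, edgeR without a replicate block called 2.17% in Ni-E and 0.6% in Ni-W, each against UT. At these shares, 0 calls would be usual in a list of 15 genes. Of 31 other metallothionein and zinc transporter genes, 15 were tested and 0 were called in any contrast by edgeR, DESeq2 or limma. By edgeR without a replicate block, 0 had an unadjusted p below 0.05 in any contrast, beside 12.2%, 9.12% and 5.57% of all genes tested. Their log2 changes ran from −0.39 (SLC39A6) to 0.58 (SLC30A3) for Ni-E vs UT, with a median of 0.09, and from −0.29 (SLC39A3) to 0.71 (SLC30A4) for Ni-W vs UT, with a median of −0.003. Of 14 genes of copper and divalent metal handling, 13 were tested and 0 were called in any contrast by edgeR without a replicate block. At the shares above, 0 calls would be usual here too. The median log2 changes of these 13 genes were −0.04 and 0.06 in the contrasts with UT. STEAP2 is a metalloreductase singled out after its values were seen. By edgeR without a replicate block, it was the 1 gene of these with an unadjusted p below 0.05 in any of the 3 contrasts. Its counts were 246 and 201 in UT, 74 and 95 in Ni-E and 153 and 132 in Ni-W, and its log2 change for Ni-E vs UT was −1.48 ± 0.39 SE (edgeR, unadjusted 0.00976, adjusted p = 0.165). DESeq2 called it lower for Ni-E vs UT.

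Among 11135 genes with a mean of at least 5 CPM, those whose log2 CPM followed MT2A most closely over the 6 RT4 libraries were IFI6, CSF1, BST2, TRABD2B and CABYR, with Pearson's r from 0.991 to 0.998. IFI6 stood at 3.54 and 5.69 CPM in UT, 70.0 and 84.5 CPM in Ni-E and 108 and 141 CPM in Ni-W. Those most like SLC30A1 were FANCI, TNRC6A, MAP3K8, DUSP3 and LITAF, with r from 0.994 to 0.998. LITAF stood at 140 and 84.3 CPM in UT, 195 and 144 CPM in Ni-E and 220 and 136 CPM in Ni-W, with replicate 1 above replicate 2 in every group as for SLC30A1. These values share the 6 libraries with their replicate difference and are a description.

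In BEAS-2B, H3K4me3 was read as the RPKM within 2 kb on each side of the gene start. The values are whole multiples of what 1 read is worth, which gives depths of 28385726 (UT), 37493949 (Ni-E) and 29933545 (Ni-W) reads. All intervals are 95% Wilson intervals, or exact ones for ratios, and cover counting error only. With 1 library per condition there is no replicate check and no test. Of the bronchial epithelial markers, the promoters of KRT7, KRT8 and KRT18 were at 7.15 to 7.33 RPKM in UT, NKX2-1 at 2.76 and EPCAM at 2.21 RPKM. KRT19 was at 0.432, TP63 at 0.388 and CDH1 at 1.02 RPKM. The fibroblast gene COL1A1 was at 8.74 RPKM, whereas the fibroblast genes COL3A1 and DCN were at 0.167 and 0.229 RPKM. The remaining markers of other cell types ran from 0 (PTPRC) to 0.326 RPKM (VWF).

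The promoters of the metallothionein cluster fell into marked and unmarked ones. In UT, MT2A was at 5.37 RPKM (610 reads, 4.96 to 5.82), MT1E at 2.55 (2.27 to 2.86), MT1X at 2.03 (1.78 to 2.30) and MT1F at 1.59 (1.37 to 1.83). MT1A was at 0.264 RPKM (0.185 to 0.377), MT1G at 0.079 and MT1M at 0.07, from 30, 9 and 8 reads. The median of all promoters was 1.57 RPKM. SLC30A1 was at 11.4 RPKM (10.7 to 11.99) and MTF1 at 8.36 (7.84 to 8.91), both above MT2A. SLC39A10 was at 5.12 RPKM (4.72 to 5.55), an interval that overlaps that of MT2A. SLC30A1 was above 95.2% of all promoters. No promoter windows of 2 members overlap, but the window of MT1G shares 2251 bases with that of MT1H, and those of MT1M and MT1A share 920 and 1073 bases with that of the pseudogene MT1JP.

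**Figure D3:**
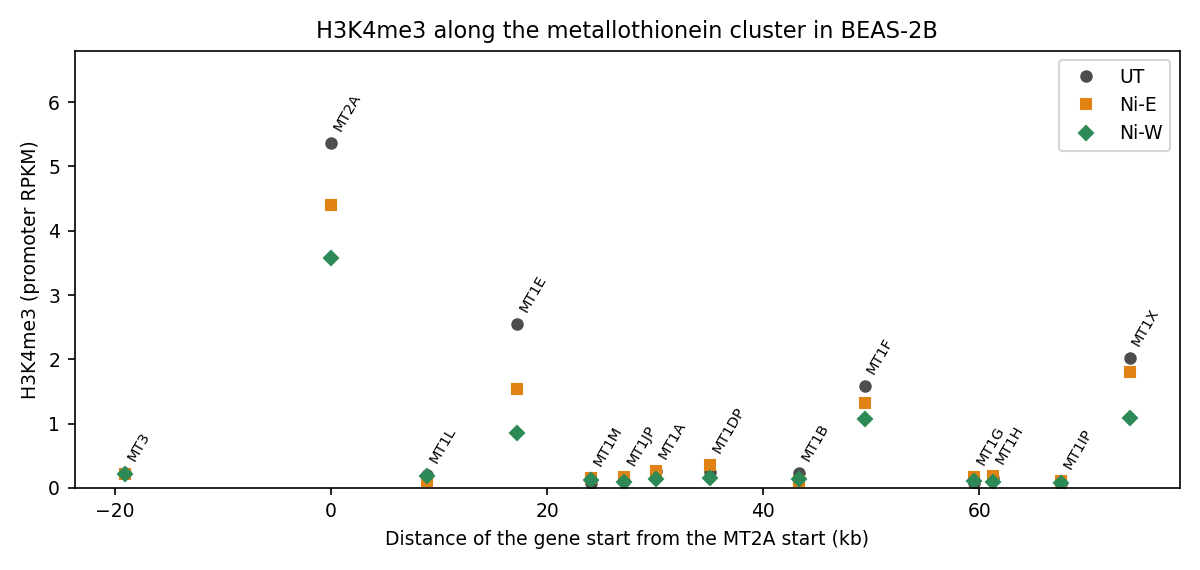
H3K4me3 (promoter RPKM, vertical axis) of the metallothionein genes and pseudogenes by the distance of their start from that of MT2A (kb, horizontal axis), in BEAS-2B. Each symbol is 1 library (UT, Ni-E or Ni-W), and MT4 and MT1HL1 are not drawn; MT2A, MT1E, MT1F and MT1X stand above the rest, and the UT symbol is the highest at each of these 4.

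The promoter of MT1E had the lowest ratios of H3K4me3 to UT among the marked members. It was at 2.55 RPKM in UT, 1.54 in Ni-E (1.35 to 1.75) and 0.86 in Ni-W (0.709 to 1.04), from 289, 231 and 103 reads, and these intervals did not overlap. The ratio was 0.605 in Ni-E vs UT (0.507 to 0.722), 0.338 in Ni-W vs UT (0.267 to 0.425) and 0.558 in Ni-W vs Ni-E (0.438 to 0.707). Of the 13843 promoters with at least 1 RPKM in UT, 0.679% had a lower ratio for Ni-E vs UT and 0.881% for Ni-W vs UT, but 37.1% for Ni-W vs Ni-E. The medians over these promoters were 0.952, 0.569 and 0.604. In RT4, MT1E had 0 RNA counts.

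MT2A, whose RNA rose in RT4, was at 5.37 RPKM in UT, 4.39 in Ni-E (4.07 to 4.74) and 3.58 in Ni-W (3.25 to 3.93) in BEAS-2B. The ratios were 0.818 for Ni-E vs UT (0.731 to 0.915) and 0.665 for Ni-W vs UT (0.587 to 0.754). A lower ratio was found at 9.44% of the marked promoters for Ni-E vs UT and at 72.0% for Ni-W vs UT. The promoter thus stood below most marked promoters in the first contrast and above most in the second. Since the cell lines, the assay and the time without nickel differ, these values are given side by side and were not compared.

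MT1X was at 2.03, 1.80 and 1.09 RPKM and MT1F at 1.59, 1.33 and 1.07 RPKM in UT, Ni-E and Ni-W. The Ni-W vs UT ratios were 0.540 (0.432 to 0.672) and 0.674 (0.533 to 0.851), with 41.2% and 73.5% of marked promoters lower. MTF1 was at 8.36, 8.001 and 4.67 RPKM, with a Ni-W vs UT ratio of 0.559 (0.502 to 0.621) and 47.2% of marked promoters lower. SLC30A1 was at 11.4, 10.6 and 8.95 RPKM and SLC39A10 at 5.12, 5.30 and 4.10 RPKM. Their Ni-W vs UT ratios of 0.789 (0.727 to 0.856) and 0.801 (0.709 to 0.905) were above those of most marked promoters, 87.1% and 88.0% of which were lower. The unmarked MT1A, MT1G and MT1M stayed below 0.27 RPKM in all 3 libraries.

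**Figure D4:**
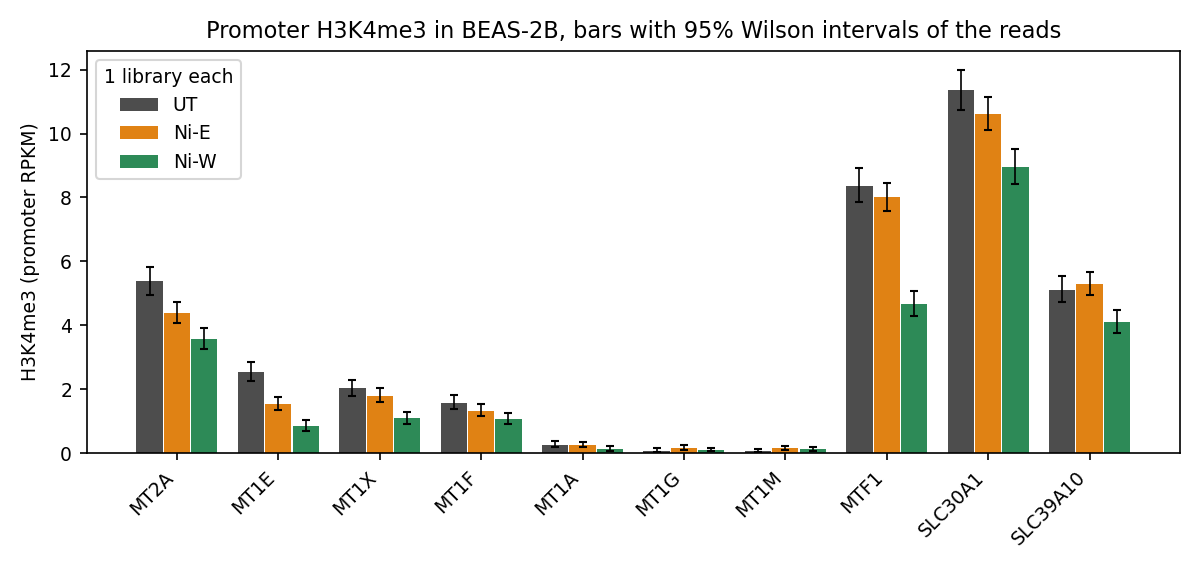
H3K4me3 (promoter RPKM, vertical axis from 0) at the 10 members in the UT, Ni-E and Ni-W libraries of BEAS-2B, 1 library each. Bars are the deposited values and whiskers the 95% Wilson intervals of the reads; MT1E is at 2.55, 1.54 and 0.86 RPKM, and MTF1 is at 8.001 in Ni-E and 4.67 in Ni-W.

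The chromatin dynamic score of the study sets each promoter against the middle of its library. The RPKM is divided by the library median, its square root is taken, and the conditions are subtracted. Counting alone gives it an SE of 0.0510, 0.0572 and 0.0554 in Ni-E vs UT, Ni-W vs UT and Ni-W vs Ni-E. Below, a score beyond the matching 95% range is called past counting error. For Ni-E vs UT the score was below 0 past counting error at 1 member, MT1E (−0.220), and above it at 3, SLC39A10 (0.148), MT1M (0.128) and MT1G (0.123). The ratios of the last 2 rest on few reads, with intervals of 0.987 to 5.85 and 0.949 to 5.12. Over all promoters these shares were 3.74% and 29.1%. For Ni-W vs UT it was lower at 3 members, MT1E (−0.397), MTF1 (−0.266) and MT1X (−0.148), and higher at SLC30A1 (0.138), beside 36.3% and 19.9% of all promoters. For Ni-W vs Ni-E the low members were again MTF1 (−0.359), MT1E (−0.177) and MT1X (−0.150), with 0 members higher, beside 44.3% and 14.8%. MT2A was within counting error in all 3 contrasts (−0.071, −0.064 and 0.008) under this scaling. Under quantile normalization, which gives the 3 libraries the same distribution, the scores of MT2A were −0.147, 0.166 and 0.313, beyond that range and with the second turned in sign. For Ni-W vs UT, quantile normalization moved MTF1 to −0.066 and SLC39A10 to 0.368, and for Ni-W vs Ni-E MTF1 to −0.069, SLC30A1 to 0.456 and SLC39A10 to 0.280. MT1E stayed below 0 past counting error in all 3 contrasts, at −0.232, −0.467 and −0.235. The median score over the 10 members was 0.052, −0.046 and −0.044, and over all promoters 0.053, −0.027 and −0.075. Without scaling to the library median the member medians were −0.0721, −0.307 and −0.236. Under quantile normalization the member median for Ni-W vs UT was above 0. The direction in both contrasts with UT thus rests on the scaling. The score of SLC30A1 for Ni-W vs UT was −0.377 without scaling to the library median and 0.404 under quantile normalization.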

How the data were processed

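For 6 RT4 libraries, RSEM estimated counts with TPM and FPKM per gene were deposited by the authors, and promoter RPKM for 3 BEAS-2B H3K4me3 libraries (BWA, hg38, 1 copy of redundant reads, no peak calling). Deposited FPKM values were not tested. The methods describe RNA alignment to hg19 with STAR and removal of multi-hits. Whether RSEM used those alignments is not given in the sources used here. ChIP inputs were not analysed here.

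Deposited estimated counts were rounded and tested with edgeR 4.0.16 (quasi-likelihood, TMM, filterByExpr) in 1 model of the 3 groups, and a call needed a change of 1.5-fold or more with p below 0.05 after Benjamini-Hochberg adjustment over all genes. SE is the log2 change over the square root of F. Alternatives were DESeq2 1.42.0, limma 3.58.1 on log2(TPM + 1) or log2(TPM + 0.1), other filters, size factors and groups, a replicate block, each library left out, and for H3K4me3 other scalings. Scripts were tested on simulated data. With the spread of these libraries, 10 of 100 genes changed 2-fold and 82 of 100 changed 4-fold were called for Ni-E vs UT. These genes were drawn from those with a mean above 5 CPM, which MT1F and MT1X did not reach. The replicate numbers differed only in depth in this simulation. A change that did not pass is thus not shown to be absent. Totals per RNA library were 17075833 to 27736454 counts. A count of 0 allows 3 counts. Named genes are the 10 members, called genes of the 2 metal lists and the 5 genes most like MT2A and like SLC30A1. Markers, the extremes of a list and genes singled out after their values were seen are named besides. The members and lists were chosen with earlier results of these data known. Positions and promoters are from RefSeq (GRCh38.p14), and 5 members matched a promoter entry. Exons and coding sequences are from GENCODE release 44.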

Additional observations from a re-analysis of the deposited data

How the results depend on the processing

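With at least 10 counts in every sample, MT2A was not tested and 0 members were called for Ni-E vs UT and Ni-W vs UT. In a fit of the 2 groups compared, 0 members, and 0 genes in all, were called for Ni-W vs UT. Leaving out a library gave a summed metallothionein change of 2.14 to 2.98 (Ni-E vs UT) and 2.56 to 3.41 (Ni-W vs UT) on the log2 scale, highest without UT replicate 2. The library left alone in its group was assumed to vary like the others. All genes called were 314, 87 and 0 as reported (Ni-E vs UT, Ni-W vs UT, Ni-W vs Ni-E), 734, 437 and 139 with DESeq2, and 449, 193 and 14 without a filter. They were 209, 54 and 0 with at least 10 counts in every sample. With limma they were 170, 79 and 0 on log2(TPM + 1) and 151, 76 and 0 on log2(TPM + 0.1).

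With a replicate block, 4 members were called in each contrast with UT (MT1X, MT2A and SLC30A1 higher, SLC39A10 lower) and 0 between Ni-W and Ni-E. All genes called were then 1833, 1243 and 655, with STEAP2 lower in Ni-E vs UT and higher in Ni-W vs Ni-E. By edgeR with the block, an unadjusted p below 0.05 in a contrast with UT was reached by SLC39A3, SLC39A11 and SLC39A14 of the zinc list. Of the copper list it was reached by SLC11A2, SCO2, STEAP2 and STEAP3. The deviations of same-numbered samples correlated at 0.657 (UT and Ni-E), 0.764 (UT and Ni-W) and 0.689 (Ni-E and Ni-W) over 14502 genes. No source says what the numbers mark, and there are 2 pairs a contrast.

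Leaving out single libraries turned the direction of log2 changes that had not passed the test. MTF1 ranged from −0.21 to 0.61 in Ni-E vs UT (below 0 without UT replicate 2 or Ni-E replicate 1), from −0.33 to 0.85 in Ni-W vs UT (below 0 without Ni-W replicate 1) and from −0.51 to 0.65 in Ni-W vs Ni-E. In Ni-W vs Ni-E, MT1X ranged from −0.41 to 1.51 (below 0 without Ni-E replicate 1 or Ni-W replicate 2), SLC30A1 from −0.68 to 0.87 and SLC39A10 from −0.65 to 0.77. MTF1, SLC30A1 and SLC39A10 were below 0 there without Ni-W replicate 1, and MTF1 and SLC30A1 also without Ni-E replicate 2. The cause was not tested.

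The median H3K4me3 score of the members was −0.0721, −0.307 and −0.236 without median scaling (Ni-E vs UT, Ni-W vs UT, Ni-W vs Ni-E), −0.0725, −0.316 and −0.230 as a log2 ratio of (RPKM + 1), and −0.00983 and 0.0138 in the contrasts with UT after quantile normalization. SLC30A1 for Ni-W vs UT was −0.377 and −0.312 under the first 2 of these, neither of which scales to the library median. The RNA results are limited by 9 and 18 MT2A reads in UT and the H3K4me3 results by 1 library per condition.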
